A study of Homo sapiens with 12 samples.

Results

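Transcripts of 10 genes were followed in OVCAR8 cells: the receptor tyrosine kinases EGFR, ERBB2, ERBB3, MET, AXL and IGF1R, and the EGFR ligands AREG, EREG, HBEGF and TGFA. They were taken by gene symbol from the 26485 genes of the annotation, with earlier results of these data known, and no threshold on a measured value was used. OVCAR8 is an established human ovarian cancer cell line, and as all groups come from it the results describe a single line. The controls received vehicle, EC359 was given to another group at 150 nM, trametinib to another at 100 nM, and the combination group received both agents at these doses. EC359 is a small molecule that targets the LIF receptor, and trametinib is an inhibitor of MEK, the kinase that activates ERK. All 4 groups were collected after 7 h, and each has 3 libraries. Whether the libraries of a group came from separate cultures is not stated, so p-values measure the spread between these libraries, which may be technical.

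Receptor tyrosine kinases span the cell membrane, and most pair when a ligand binds outside the cell. They pass the signal inward through adaptors to MEK and ERK and to PI3K and AKT. EGFR, ERBB2 and ERBB3 belong to one family. EGFR binds amphiregulin (AREG), epiregulin (EREG), heparin-binding EGF (HBEGF) and TGF-alpha (TGFA), which are made as membrane precursors and released by proteases. ERBB3 binds neuregulins and signals mainly through its partners, and ERBB2 has no known ligand and serves as the preferred partner. Active ERK is known to raise the transcription of several of these ligands and to restrain the receptors through inhibitory feedback, and receptor signaling that returns when this feedback is lost is a known feature of treatment with MEK inhibitors.

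Between 24790392 and 32467283 counts were assigned to genes per library. Levels are in CPM, which divides each count by its library's TMM-scaled total so that libraries can be compared, and for comparisons of levels between genes as FPKM, the CPM per kilobase of exon. Of the 10 genes, 9 were among the 14865 that passed the filter on low counts, and only EREG was too low. Control replicate 2 stood somewhat apart, with a chi-square per degree of freedom of 6.73 and 7.5 against the other control libraries, which differed from each other by 2.83. Without it 8 of the 9 tested genes were called with EC359, 8 with trametinib and 8 in the combination, and 4 instead of 5 in the interaction, where AREG lost its call. Every adjusted p-value below comes from edgeR's quasi-likelihood test, adjusted over all genes tested by Benjamini-Hochberg, and a gene was called at an adjusted p under 0.05. The epithelial markers KRT8 and KRT18 stood at 1930 ± 28.5 and 1047 ± 13.6 CPM (SD, n = 3) in control, and PAX8, a marker of ovarian carcinoma, at 75.8 ± 2.13 CPM. Other defining markers were low or absent, with MUC16 at 0 and CDH1 at 0.149 ± 0.0756 CPM in control. The blood markers PTPRC and CD3E were at 0 in all 12 libraries. The fibroblast genes did not go together: COL1A1 and PDGFRB were detected at 427 ± 10.5 and 13.3 ± 0.410 CPM in control, whereas COL3A1 was nearly absent at 0.0534 ± 0.0362 CPM. Several of these markers moved with the treatments. COL1A1 fell with EC359 (log2 fold change -0.92) and the combination (-0.40) and rose with trametinib (0.28). PDGFRB rose with trametinib (0.70), the combination (0.95) and EC359 (0.25, adjusted p = 0.00147). By total counts alone the EC359 call of PDGFRB was lost (0.12, adjusted p = 0.133). PAX8 rose with EC359 (0.54), trametinib (0.27) and the combination (0.68), whereas WT1, the other tested ovarian marker, fell with trametinib (-0.42) and the combination (-0.83). KRT18 fell with trametinib (-0.40) and the combination (-0.32), and KRT8 fell with trametinib (-0.13) and the combination (-0.07). Their part in the results below was not tested.

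Compared to control, EC359 raised 5 of the 9 tested genes and lowered 3. Across all genes tested 30.8% were called higher and 30.3% lower, so calls of either kind were frequent. The rise was at least 2-fold for HBEGF, AREG and IGF1R, 3 of the 9, where 4.19% of all genes rose by this much. No tested member fell by 2-fold, against 2.79% of all genes. Trametinib raised 4 and lowered 4 of the 9, against 13% and 15.2% of all genes, and none of these changes reached 2-fold, as was true of nearly all genes (0.478% called higher and 0.955% lower by at least 2-fold). The combination also raised 4 and lowered 4, against 35% and 34.7% of all genes. HBEGF, AREG and IGF1R were again at least 2-fold higher, and no tested member was 2-fold lower, where the shares over all genes were 7.27% and 5.87%. The median log2 fold change of the 9 genes was 0.28 with EC359, -0.19 with trametinib and -0.06 in the combination, beside -0.01, 0.00 and -0.01 over all genes tested. These 3 comparisons share the same control libraries. In bulk RNA, fewer cells that express a gene and less RNA per cell cannot be told apart.

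**Figure D1:**
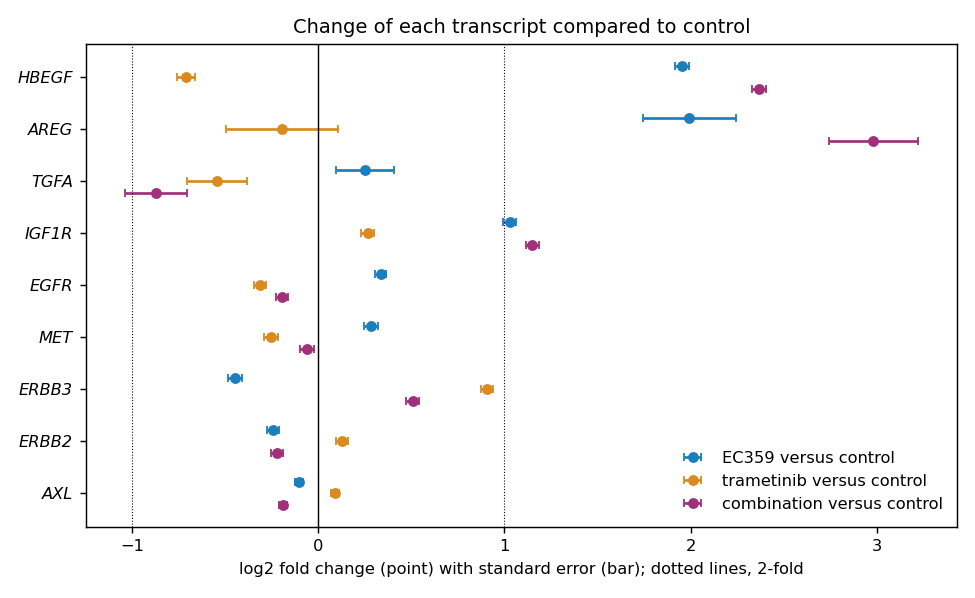
Log2 fold change compared to control (x axis) of the 9 tested genes (y axis) with EC359, trametinib and the combination. Points are estimates, bars are standard errors from the edgeR model, and dotted lines mark 2-fold. HBEGF, AREG and IGF1R lie right of the 2-fold line with EC359 and with the combination, and ERBB3 is the gene farthest right with trametinib alone, at 0.91.

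Among the ligands, HBEGF carried most of the transcript. HBEGF lies on chromosome 5 from 140332843 to 140346603 on the minus strand in hg38 and encodes a ligand of EGFR and ERBB4. Its 3 control libraries read 32.4, 28.8 and 30.6 CPM, those with EC359 read 120.1, 118.6 and 116.3 CPM, those with trametinib 18.3, 18.5 and 19.2 CPM, and those with the combination 158.1, 156.1 and 158.7 CPM. No library of any group overlapped those of another. EC359 alone raised HBEGF 3.87-fold (log2 fold change 1.95, standard error 0.04, adjusted p = 5.52e-45). Trametinib alone lowered it 1.64-fold (log2 fold change -0.71, standard error 0.05, adjusted p = 1.67e-18). The combination raised it 5.16-fold over control, a log2 fold change of 2.37 (standard error 0.04, adjusted p = 8.6e-50).

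The direction of the trametinib effect on HBEGF therefore depended on EC359. Without EC359 trametinib lowered HBEGF by 0.71 log2 units, and in cells that also received EC359 the combination was higher than EC359 alone by 0.41 log2 units (standard error 0.03, adjusted p = 9.83e-17). The interaction, the log2 effect of trametinib with EC359 less its log2 effect without it, was 1.12 (standard error 0.06, adjusted p = 6.22e-23). Seen from the other side, EC359 added to trametinib raised HBEGF 8.44-fold, from 18.7 ± 0.440 to 157.6 ± 1.37 CPM (SD, n = 3).

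AREG, which encodes amphiregulin, lies on chromosome 4 from 74445098 to 74455009 on the plus strand and moved in a similar way at a far lower level. Control libraries held 8, 23 and 20 counts, or 0.286, 0.729 and 0.588 CPM. EC359 libraries held 44, 62 and 65 counts, or 1.86, 2.08 and 2.56 CPM. With trametinib the libraries held 10, 15 and 17 counts, or 0.312, 0.570 and 0.551 CPM, and with the combination 109, 117 and 112 counts, or 4.35, 4.36 and 4.21 CPM. The trametinib and control libraries overlapped, whereas EC359 and combination libraries each lay apart from all others. The increase was 3.98-fold with EC359 (log2 fold change 1.99, standard error 0.25, adjusted p = 5.93e-10) and 7.89-fold with the combination (log2 fold change 2.98, standard error 0.24, adjusted p = 1.29e-16). Trametinib alone gave a log2 fold change of -0.19, which did not pass the test (adjusted p = 0.694), and its sign turned when control replicate 2 or trametinib replicate 1 was left out. Added to EC359, trametinib raised AREG by 0.99 log2 units (adjusted p = 5.88e-05).

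The interaction for AREG was 1.18 (standard error 0.36, adjusted p = 0.00997). It rested on few counts in the control and trametinib groups. Without control replicate 2 it was 0.91 with an adjusted p of 0.0809, and without trametinib replicate 1 it was 0.94 with an adjusted p of 0.0573. The rise of AREG with the combination over control ranged from 2.71 to 3.25 log2 units over the other settings and left-out libraries that gave it a value, which do not include the filter of 10 counts in every library, since AREG had 8 counts in a control library.

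EREG, the gene of epiregulin, lies upstream of AREG on the same strand, from 74365143 to 74388760, with 56337 bases between the end of EREG and the start of AREG. It gave 2, 1 and 3 counts in the control libraries, 1, 0 and 1 with EC359, and 0 in each of the 6 libraries that received trametinib, alone or in the combination. A count of 0 allows up to 3 counts, or 0.0883 to 0.127 CPM at the depth of these libraries, and this limit covers counting error only. All 12 values lie at or below this limit, so no change of EREG was detectable at this depth, although its neighbour AREG rose with EC359 and with the combination.

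TGFA encodes TGF-alpha and lies on chromosome 2 from 70447280 to 70554015 on the minus strand. Its libraries read 3.93, 3.46 and 3.47 CPM in control, 4.01, 4.26 and 4.61 CPM with EC359, 2.56, 2.13 and 2.73 CPM with trametinib, and 2.28, 1.68 and 1.99 CPM with the combination. Unlike HBEGF and AREG, TGFA had its lowest mean in the combination, where its libraries overlapped those with trametinib. The EC359 libraries all lay above the controls, yet the log2 fold change of 0.25 (standard error 0.16) did not pass the test (adjusted p = 0.165). Trametinib lowered TGFA 1.46-fold (log2 fold change -0.54, standard error 0.16, adjusted p = 0.00706), and this call was lost without trametinib replicate 2 (log2 fold change -0.45, adjusted p = 0.0554). In the combination TGFA was 1.83-fold lower than in control (log2 fold change -0.87, standard error 0.17, adjusted p = 7.31e-06) and 2.17-fold lower than with EC359 alone (log2 fold change -1.12, adjusted p = 9.7e-08). The difference between the combination and trametinib alone, -0.32, did not pass the test (adjusted p = 0.0903), but TGFA passed it at -0.42 without trametinib replicate 2 (adjusted p = 0.0454), at -0.43 without combination replicate 1 (adjusted p = 0.0444) and at -0.49 by total counts alone (adjusted p = 0.0102).

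**Figure D2:**
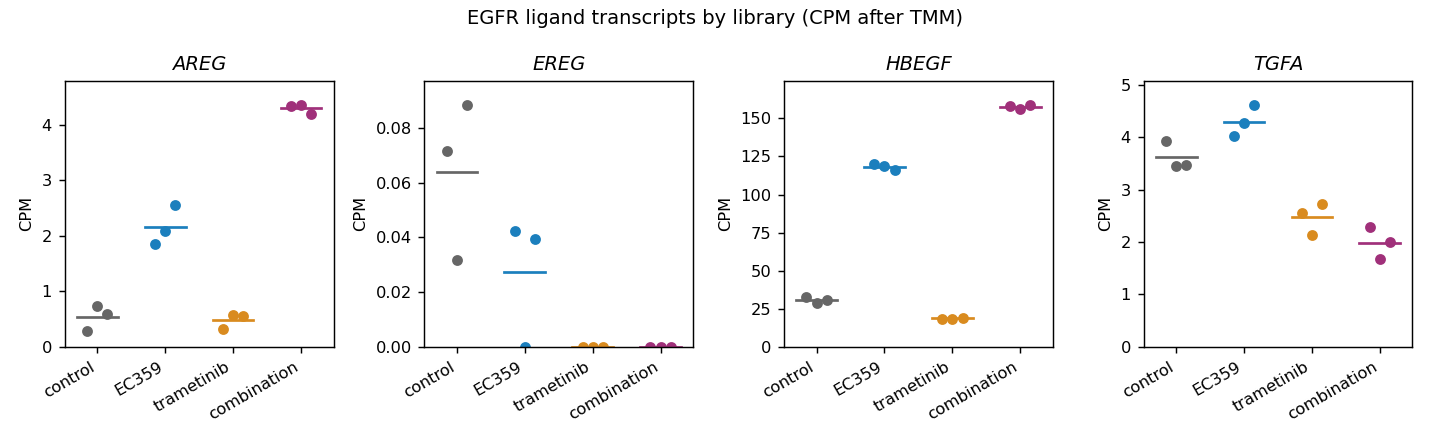
CPM after TMM (y axis, each panel with its own scale from 0) of AREG, EREG, HBEGF and TGFA in the 3 libraries of each group (points), with group means (lines). HBEGF reached 158.7 CPM in the combination, AREG stayed below 5 CPM and EREG below 0.1 CPM in all libraries, and the mean of TGFA was lowest in the combination.

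Summed over the EGFR ligands AREG, EREG, HBEGF, TGFA, EGF, BTC and EPGN, the transcript level per length was 14.6 ± 0.603 FPKM (SD, n = 3) in control. It was 53.2 ± 0.343 FPKM with EC359, 9.41 ± 0.387 FPKM with trametinib and 71.3 ± 0.685 FPKM in the combination. The 4 groups did not overlap. HBEGF made up 88.5 ± 1.65% of this sum in control and 84.2 ± 1.49% with trametinib. Its share was 94.4 ± 0.882% with EC359 and 93.7 ± 0.136% with the combination. The summed level therefore followed HBEGF closely, and the relative rise of AREG, though larger in the combination, added few transcripts.

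The promoters of the 3 genes that rose by 2-fold or more with EC359 are shown with that of EREG, the neighbour of AREG that stayed near 0, so that they can be read side by side. They are the RefSeq sequences of GRCh38.p14 upstream of the annotated start, 5′ to 3′ on the strand of the gene: AREG chr4:74444886-74445097 (plus), EREG chr4:74364895-74365142 (plus), HBEGF chr5:140346604-140346853 (minus) and IGF1R chr15:98648289-98648538 (plus). Capitals mark matches on either strand to the cAMP response element TGACGTCA, the AP-1 site TGANTCA or the GC box GGGCGG.
AREG: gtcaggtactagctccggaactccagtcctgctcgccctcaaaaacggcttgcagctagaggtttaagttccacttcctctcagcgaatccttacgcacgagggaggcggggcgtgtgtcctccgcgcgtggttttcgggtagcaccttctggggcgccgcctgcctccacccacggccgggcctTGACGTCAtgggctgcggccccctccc
EREG: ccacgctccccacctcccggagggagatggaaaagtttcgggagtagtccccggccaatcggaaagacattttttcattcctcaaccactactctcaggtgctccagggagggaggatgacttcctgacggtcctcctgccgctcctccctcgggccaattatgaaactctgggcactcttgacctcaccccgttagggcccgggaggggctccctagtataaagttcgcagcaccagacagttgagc
HBEGF: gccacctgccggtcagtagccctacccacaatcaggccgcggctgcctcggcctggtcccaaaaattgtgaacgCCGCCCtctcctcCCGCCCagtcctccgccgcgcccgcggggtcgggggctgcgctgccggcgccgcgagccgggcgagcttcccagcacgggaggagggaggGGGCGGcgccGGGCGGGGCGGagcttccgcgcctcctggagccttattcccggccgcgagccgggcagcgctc
IGF1R: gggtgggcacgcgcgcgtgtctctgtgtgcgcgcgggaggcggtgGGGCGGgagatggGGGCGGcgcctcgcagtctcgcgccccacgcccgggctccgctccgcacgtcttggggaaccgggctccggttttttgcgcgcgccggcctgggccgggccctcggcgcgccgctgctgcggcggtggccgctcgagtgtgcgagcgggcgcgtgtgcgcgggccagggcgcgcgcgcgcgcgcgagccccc

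The AREG promoter holds a cAMP response element that begins 65 bases before the RefSeq start, a match found in 1.65% of the 35116 RefSeq promoter records when the 250 bases before each start were searched. HBEGF holds 5 GC boxes, of which the pair nearest its gene overlaps by a shared base, and IGF1R holds 2. AREG holds 1, which begins 9 bases before its RefSeq start and so lies past the end of the stretch shown. A GC box was present in 42.6% of promoter records. EREG holds none of the 3 motifs in this window. The AP-1 site, present in 6.57% of promoter records, was found in none of these 4 promoters, and among the other members it occurred in ERBB2 and in the second promoter of EGFR. These matches describe letters in a window of sequence and were not tested for binding. ERBB3 had no entry, and 9 of the 10 genes matched.

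Among the 6 receptors followed, IGF1R rose most. It lies on chromosome 15 from 98648539 to 98964530 on the plus strand and encodes the receptor for insulin-like growth factors, which signals through IRS adaptors to PI3K and AKT. Control libraries read 59.2, 62.3 and 62.4 CPM, EC359 libraries 124.8, 125.2 and 125.8 CPM, trametinib libraries 73.8, 75.4 and 72.2 CPM, and combination libraries 141.7, 128.9 and 138.2 CPM. The order control, trametinib, EC359, combination held without overlap. IGF1R rose 2.04-fold with EC359 (log2 fold change 1.03, standard error 0.03, adjusted p = 2.36e-33), 1.20-fold with trametinib (log2 fold change 0.27, standard error 0.04, adjusted p = 1.82e-08) and 2.22-fold with the combination (log2 fold change 1.15, standard error 0.03, adjusted p = 5.06e-36). The EC359 value lies close to the 2-fold threshold, and scaling by total counts alone put it at 0.90. The combined effect was slightly below the sum of the single effects, with an interaction of -0.14 (adjusted p = 0.0169). This interaction was -0.12 (adjusted p = 0.0634) without control replicate 1 and -0.10 (adjusted p = 0.0995) without combination replicate 2.

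Of the 6 receptors followed, ERBB3 rose most with trametinib alone. ERBB3, on chromosome 12 from 56080025 to 56103507 on the plus strand, encodes the neuregulin receptor that couples ERBB dimers to PI3K. Its libraries read 76.5, 70.0 and 73.7 CPM in control, 52.8, 52.8 and 55.7 CPM with EC359, 136.4, 142.3 and 134.6 CPM with trametinib and 106.9, 103.2 and 102.8 CPM with the combination. All 4 groups were apart. Trametinib raised ERBB3 1.88-fold (log2 fold change 0.91, standard error 0.03, adjusted p = 1.33e-30), and EC359 lowered it 1.36-fold (log2 fold change -0.45, standard error 0.04, adjusted p = 9.34e-16). The combination lay between the single agents, 1.42-fold above control (log2 fold change 0.51, adjusted p = 1.5e-19). The trametinib effect was 0.96 log2 units in the presence of EC359 and 0.91 in its absence, and the interaction of 0.05 (standard error 0.05) did not pass the test (adjusted p = 0.515). In 11 of the 12 libraries the count of ERBB3 was not whole, because reads with several placements or genes were divided by the authors.

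EGFR, on chromosome 7 from 55019032 to 55207338 on the plus strand, moved the opposite way to ERBB3. Its libraries read 122.1, 121.5 and 125.5 CPM in control, 155.4, 153.2 and 157.8 CPM with EC359, 98.2, 99.4 and 99.7 CPM with trametinib and 111.1, 101.4 and 110.3 CPM with the combination. EC359 raised EGFR 1.26-fold (log2 fold change 0.34, standard error 0.03, adjusted p = 1.12e-14). Trametinib lowered it 1.24-fold (log2 fold change -0.31, standard error 0.03, adjusted p = 2.26e-12). Over the other settings and left-out libraries EGFR ranged from 0.20 to 0.35 with EC359 and from -0.33 to -0.15 with the combination. With both agents EGFR was 1.14-fold below control (log2 fold change -0.19, standard error 0.03, adjusted p = 2.03e-07), while the sum of the single effects was 0.02, and the interaction was -0.22 (standard error 0.04, adjusted p = 8e-05). The combination exceeded trametinib alone by 0.12 log2 units (adjusted p = 0.00096) on the TMM scale, but by total counts alone this difference was -0.05 (adjusted p = 0.205), so its direction depends on the scaling.

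Per length, the ratio of ERBB3 to EGFR transcript was 0.633 ± 0.0281 (SD, n = 3) in control and 0.367 ± 0.00726 with EC359. It was 1.47 ± 0.0429 with trametinib and 1.03 ± 0.0462 with the combination, without overlap between groups. The ratio of HBEGF to EGFR rose from 0.693 ± 0.0413 in control to 2.12 ± 0.0581 with EC359 and 4.09 ± 0.176 with the combination, and stood at 0.525 ± 0.00951 with trametinib. Ratios within a library do not depend on the scaling between libraries, and they describe transcripts, not receptor or ligand protein.

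ERBB2, the partner receptor without a known ligand, lies on chromosome 17 from 39688084 to 39728662 on the plus strand and changed little. Its libraries read 93.6, 95.1 and 96.6 CPM in control, 80.4, 80.3 and 80.8 CPM with EC359, 102.4, 104.8 and 105 CPM with trametinib and 83.8, 81.6 and 79.2 CPM with the combination. EC359 lowered ERBB2 1.18-fold (log2 fold change -0.24, adjusted p = 4.04e-09), trametinib raised it 1.09-fold (log2 fold change 0.13, adjusted p = 0.000811), and the combination lowered it 1.17-fold (log2 fold change -0.22, adjusted p = 2.03e-08). ERBB2 ranged from -0.37 to -0.23 with EC359 and from -0.36 to -0.20 with the combination over the other settings and left-out libraries. The combination and EC359 libraries overlapped, and their difference of 0.02 (standard error 0.03) did not pass the test (adjusted p = 0.686). The interaction of ERBB2, -0.11, missed the threshold (adjusted p = 0.0581) and passed it without combination replicate 1 (-0.13, adjusted p = 0.0317), by total counts alone (-0.14, adjusted p = 0.0147) and with DESeq2 size factors (-0.12, adjusted p = 0.0417).

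MET, the receptor for hepatocyte growth factor, lies on chromosome 7 from 116672405 to 116798386 on the plus strand. Its libraries read 103.1, 100.1 and 105.4 CPM in control, 123.8, 130.4 and 121.3 CPM with EC359, 86.2, 91.6 and 81.9 CPM with trametinib and 104, 96.4 and 96.1 CPM with the combination. EC359 raised MET 1.22-fold (log2 fold change 0.28, standard error 0.04, adjusted p = 3.57e-09) and trametinib lowered it 1.19-fold (log2 fold change -0.25, standard error 0.04, adjusted p = 4.01e-07), the same directions as for EGFR. With EC359 the log2 fold change of MET ranged from 0.15 to 0.31 over the other settings and left-out libraries. In the combination its libraries overlapped the controls, and the log2 fold change of -0.06 did not pass the test (adjusted p = 0.149). This last value depended on the scaling and on 1 library: it was -0.20 (adjusted p = 1.06e-05) by total counts alone and -0.10 (adjusted p = 0.0256) without combination replicate 1. The combination exceeded trametinib alone by 0.19 (adjusted p = 1.59e-05), and by total counts alone by 0.03 (adjusted p = 0.507).

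AXL, a receptor for GAS6, lies on chromosome 19 from 41219199 to 41261767 on the plus strand and was the most abundant of the 10 transcripts. Its libraries read 755.3, 764.4 and 769.4 CPM in control, 717.5, 686.1 and 727.4 CPM with EC359, 813.9, 811.5 and 810.8 CPM with trametinib, and 679.1, 664 and 666.4 CPM with the combination. The groups did not overlap, but the changes were small. AXL fell 1.07-fold with EC359 (log2 fold change -0.10, adjusted p = 6.84e-05), rose 1.06-fold with trametinib (log2 fold change 0.09, adjusted p = 0.00125) and fell 1.14-fold with the combination (log2 fold change -0.19, adjusted p = 1e-10). Over the other settings and left-out libraries AXL ranged from -0.24 to -0.08 with EC359 and from -0.33 to -0.18 with the combination. The interaction was -0.17 (standard error 0.03, adjusted p = 1.6e-05), as the sum of the single effects was -0.01. AXL also had a count that was not whole in 11 libraries.

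**Figure D3:**
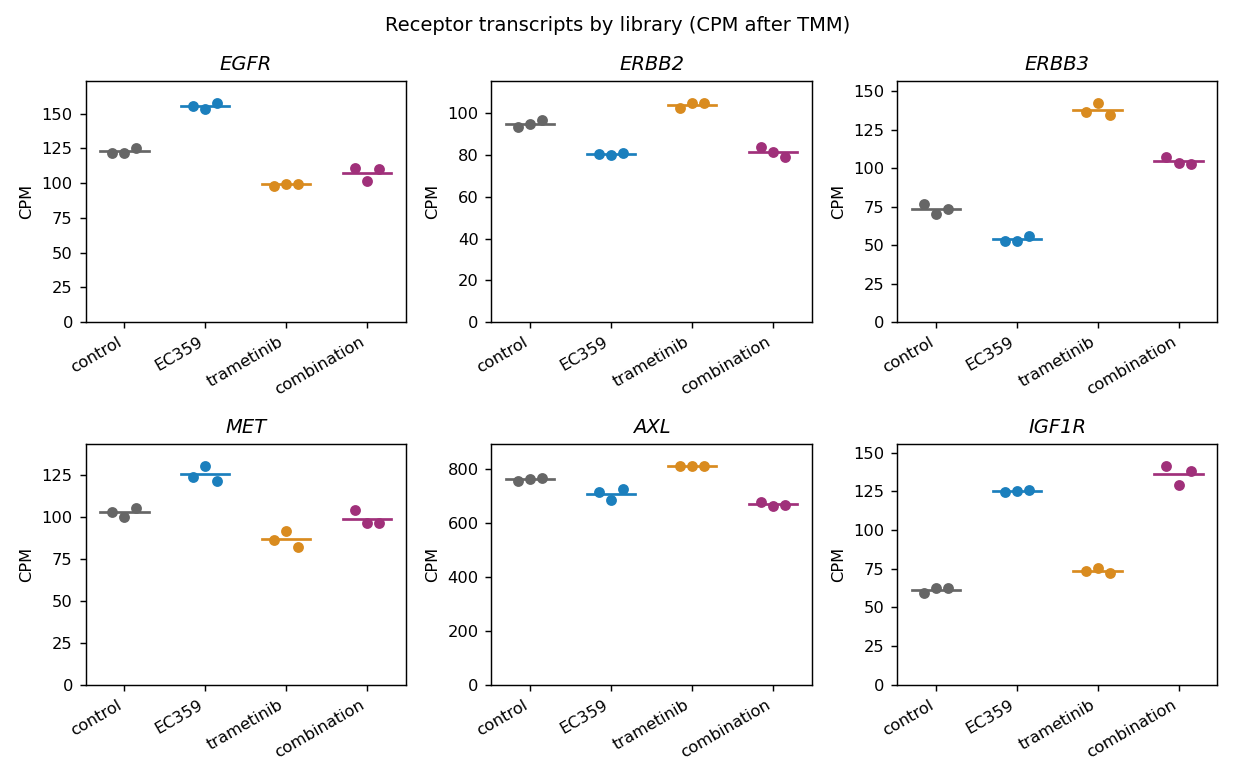
CPM after TMM (y axis, each panel with its own scale from 0) of the 6 receptors in the 3 libraries of each group (points), with group means (lines). IGF1R was 2.04-fold and 2.22-fold above control with EC359 and the combination, ERBB3 was highest with trametinib, and EGFR and MET were highest with EC359.

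Each receptor's response to one agent could be set beside its response to the other. EGFR and MET were higher with EC359 and lower with trametinib, and ERBB2, ERBB3 and AXL were lower with EC359 and higher with trametinib. Of the 6 receptors followed, only IGF1R was higher with both. Among the ligands, HBEGF was higher with EC359 and lower with trametinib, AREG was higher with EC359, and TGFA was lower with trametinib. Of the 9 tested genes, 4 were higher and 4 lower in the combination than with EC359 alone, against 24.1% and 25.2% of all genes. Compared to trametinib alone, 5 were higher and 3 lower in the combination, against 35.3% and 32.9%. By total counts alone this balance was 3 higher and 4 lower.

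The interaction passed the test for 5 of the 9 genes. It was positive for the ligands HBEGF and AREG and negative for the receptors EGFR, AXL and IGF1R, where 14.4% of all genes had a positive and 15.9% a negative interaction. The combined effect on HBEGF was 2.37 log2 units where the single effects sum to 1.24, and that on AREG was 2.98 where they sum to 1.80. The receptors' interactions were small, between -0.14 and -0.22. TGFA had a combined effect of -0.87 where the single effects sum to -0.29, and its interaction of -0.57 (standard error 0.23) missed the threshold (adjusted p = 0.0538). The TGFA interaction passed it without trametinib replicate 2 (-0.67, adjusted p = 0.0321), without combination replicate 1 (-0.68, adjusted p = 0.0287), by total counts alone (-0.60, adjusted p = 0.0413) and with the filter of 10 counts in every library (-0.57, adjusted p = 0.0498).

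**Figure D4:**
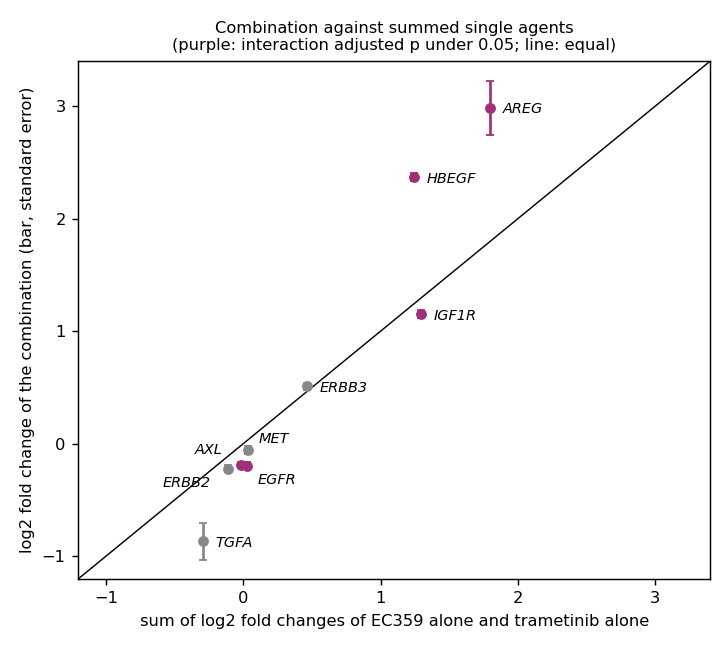
Log2 fold change of the combination (y axis, bars are standard errors) against the sum of the log2 fold changes of the single agents (x axis) for the 9 tested genes. The line marks equal values and purple points have an interaction adjusted p under 0.05. AREG and HBEGF lie above the line, and the receptors lie close to it.

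The order of levels per length differed between groups below the first place. AXL led in control at 155.7 ± 1.46 FPKM (SD, n = 3), followed by EGFR at 18.7 ± 0.328, ERBB2 at 17.3 ± 0.274, MET at 15.4 ± 0.401, HBEGF at 13.0 ± 0.769, ERBB3 at 11.9 ± 0.524 and IGF1R at 5.01 ± 0.151. The libraries of HBEGF and ERBB3 overlapped, and all other neighbours in this order were apart. TGFA, AREG and EREG came last, at 0.759 ± 0.0561, 0.419 ± 0.178 and 0.0138 ± 0.00628 FPKM. With EC359 the second place went to HBEGF at 50.2 ± 0.795 FPKM, ahead of EGFR at 23.7 ± 0.351, MET at 18.8 ± 0.706, ERBB2 at 14.6 ± 0.0545, IGF1R at 10.2 ± 0.0432 and ERBB3 at 8.69 ± 0.273, and no neighbours overlapped. With trametinib ERBB3 was second at 22.2 ± 0.648 FPKM and HBEGF fell to sixth at 7.92 ± 0.186, while TGFA and AREG overlapped. In the combination HBEGF was second at 66.8 ± 0.579 FPKM, ERBB3 at 16.9 ± 0.368 overlapped EGFR at 16.4 ± 0.820, and ERBB2 at 14.83 ± 0.416 overlapped MET at 14.81 ± 0.669. AXL stayed first in every group, at 136.7 ± 1.65 FPKM in the combination.

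The genes with the most similar pattern were sought among 9841 genes of at least 10 CPM in some group. This was done for the ligands that were tested and for IGF1R and ERBB3, which changed most among the 6 receptors. Likeness was the root mean square difference in log2 CPM relative to control over the 9 treated libraries. HBEGF was nearest to SNAI1 (0.219) and TNFRSF10D (0.271), the first a transcription factor of epithelial to mesenchymal transition and the second a decoy receptor for TRAIL. The log2 fold changes of SNAI1 were 1.84 with EC359, -0.41 with trametinib and 2.19 in the combination. AREG was nearest to SLC30A1 (0.261), a zinc exporter, and to the transcription factor KLF4 (0.334). TGFA was nearest to FAM83A (0.167) and SYNJ2 (0.184), and ERBB3 to the transcription factor CREB3L1 (0.138) and the surface protein CD24 (0.183). IGF1R had the closest matches, TBC1D9 (0.0392) and the histone methyltransferase KMT2A (0.0672), with log2 fold changes for TBC1D9 of 1.0, 0.28 and 1.15. These distances describe the libraries at hand and carry no test.

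The other receptor tyrosine kinases numbered 52, of which 35 were tested. With EC359, 18 of the 35 rose and 1 fell, beside 30.8% and 30.3% of all genes, and their median log2 fold change was 0.25 beside -0.01 over all genes. With trametinib 5 rose and 8 fell, beside 13% and 15.2% of all genes, with a median of 0.00 in both. With the combination 16 rose and 6 fell, beside 35% and 34.7% of all genes, with a median of 0.20 beside -0.01. EPHA2, an ephrin receptor, was at 212.3 ± 4.96 CPM (SD, n = 3) in control and fell to 42.0 ± 0.147 CPM with trametinib, a log2 fold change of -2.34 (adjusted p = 2.24e-52). It rose to 349.8 ± 3.89 CPM with EC359 (log2 fold change 0.72) and fell to 62.7 ± 1.61 CPM with the combination (log2 fold change -1.76). INSR, the insulin receptor and closest relative of IGF1R, rose from 12.3 ± 0.197 CPM to 30.1 ± 1.34 CPM with EC359 (log2 fold change 1.29, adjusted p = 1.55e-25) and to 29.4 ± 2.16 CPM with the combination (log2 fold change 1.26), and trametinib gave 0.29 (adjusted p = 0.000491).

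The collagen receptor DDR2 was low, at 0.553 ± 0.103 CPM in control, and rose to 1.60 ± 0.172 CPM with EC359 (log2 fold change 1.52, adjusted p = 4.62e-07) and 3.44 ± 0.557 CPM with the combination (log2 fold change 2.62, adjusted p = 8.89e-15). Trametinib alone left it at 0.605 ± 0.0965 CPM, a log2 fold change of 0.12 that did not pass the test (adjusted p = 0.801). The ephrin receptors EPHA5 and EPHB3 reached 4.13 ± 0.744 and 8.08 ± 0.271 CPM in the combination, with log2 fold changes of 1.87 and 1.07. Their values with EC359 alone were 0.26, which did not pass the test (adjusted p = 0.341), and 0.50 (adjusted p = 0.000578). With trametinib alone EPHA5 was called higher (0.74, adjusted p = 0.00703), and EPHB3 did not pass the test (-0.07, adjusted p = 0.75). The EPHA5 call was lost without control replicate 3 or trametinib replicate 1. ERBB4, the remaining receptor of the EGFR family, was at 0 CPM in all control and EC359 libraries and at a mean of 0.0253 CPM with trametinib and 0.0124 CPM with the combination.

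**Figure D5:**
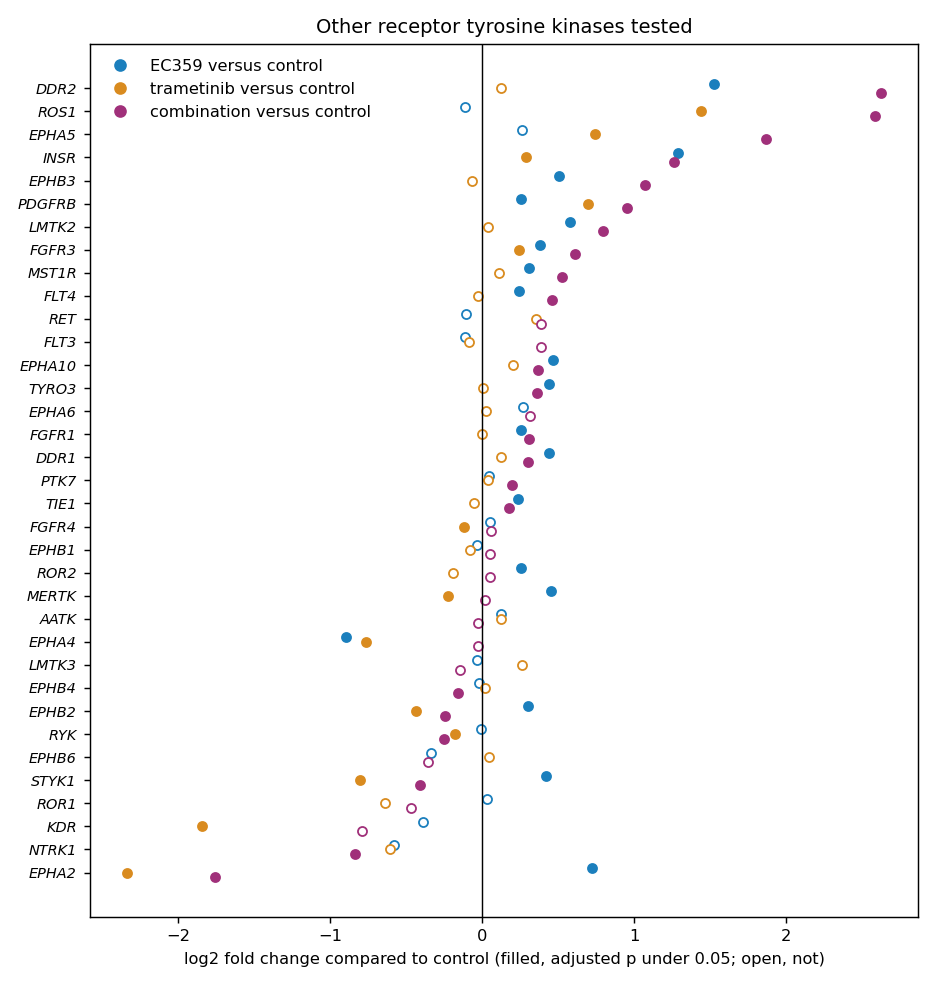
Log2 fold change compared to control (x axis) with EC359, trametinib and the combination for the 35 tested receptor tyrosine kinases outside the 6 receptors (y axis, sorted by the combination). Filled points have an adjusted p under 0.05 and open points do not. EPHA2 is lowest with trametinib and with the combination, and DDR2 is highest with EC359 and with the combination.

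Of the 7 other ligands of the EGF family, EGF, NRG1 and NRG2 were tested. NRG1, a neuregulin that binds ERBB3, was the most abundant, at 54.6 ± 1.87 CPM in control (SD, n = 3). With the combination it stood at 62.6 ± 1.89 CPM (log2 fold change 0.20, adjusted p = 8.4e-06). By total counts alone the log2 fold change was 0.06 and the call was lost (adjusted p = 0.154). The changes of NRG1 with EC359 (0.05) and trametinib (0.03) did not pass the test. NRG2 fell from 2.22 ± 0.322 CPM to 1.04 ± 0.257 CPM with trametinib (log2 fold change -1.10, adjusted p = 0.000103) and to 1.17 ± 0.138 CPM with the combination (log2 fold change -0.92). NRG2 was also called lower with EC359 (log2 fold change -0.51, adjusted p = 0.0386). That call was lost under DESeq2 (adjusted p = 0.079) and without control replicate 3, EC359 replicate 2 or EC359 replicate 3. EGF rose with the combination by 0.78 log2 units (adjusted p = 0.000376), from 1.75 ± 0.340 to 2.99 ± 0.604 CPM.

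Membrane ligands are released by ADAM proteases with the help of the iRhom proteins RHBDF1 and RHBDF2. Of 7 such genes, all tested, 4 rose and 1 fell with EC359, 2 rose and 2 fell with trametinib, and 3 rose and 1 fell with the combination. The shares of all genes called higher and lower were 30.8% and 30.3% with EC359, 13% and 15.2% with trametinib, and 35% and 34.7% in the combination. None changed by 2-fold. ADAM10, a sheddase of other EGFR ligands such as EGF, was at 135.5 ± 1.82 CPM in control and was called lower in all 3 comparisons (log2 fold changes -0.14, -0.10 and -0.28), with the trametinib call lost by total counts alone (adjusted p = 0.0592) and without trametinib replicate 3 (adjusted p = 0.0757). ADAM17, the main releasing protease for HBEGF, AREG and TGFA, rose from 43.2 ± 1.53 CPM in control to 62.8 ± 1.71 CPM with EC359 (log2 fold change 0.54, adjusted p = 1.1e-16) and to 63.2 ± 3.47 CPM with the combination (log2 fold change 0.55, adjusted p = 3.28e-17). It was also called higher with trametinib alone, at 48.8 ± 1.76 CPM (log2 fold change 0.18, adjusted p = 0.000888).

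Of 8 genes that restrain receptors or mark them for turnover, 6 rose and none fell with EC359, 1 rose and 2 fell with trametinib, and 4 rose and 2 fell with the combination. Of all genes, 30.8% rose and 30.3% fell with EC359, 13% and 15.2% with trametinib, and 35% and 34.7% in the combination. ERRFI1, an inhibitor that binds the kinase domain of EGFR and ERBB2, rose from 115.3 ± 3.36 to 265.7 ± 4.65 CPM with EC359 (log2 fold change 1.21, adjusted p = 4.97e-41). It fell to 68.9 ± 1.29 CPM with trametinib (log2 fold change -0.74, adjusted p = 7.71e-28) and stood at 170.9 ± 3.19 CPM with the combination (log2 fold change 0.57, adjusted p = 4.24e-25). LRIG1, a membrane protein that promotes receptor degradation, rose by 0.81 log2 units with EC359 (adjusted p = 9.98e-17) and had a log2 fold change of -0.27 with trametinib (adjusted p = 0.00147). CBL, a ubiquitin ligase for active receptors, rose by 0.69 with EC359 and 0.72 with the combination (adjusted p = 4.32e-28 and 4.42e-29). CBL was also the gene of this list called higher with trametinib (0.10, adjusted p = 0.011), a call lost without control replicate 1, control replicate 2 or trametinib replicate 1 (adjusted p = 0.0681, 0.149 and 0.0541). LRIG1 in the combination (0.27, adjusted p = 0.000296) lost its call by total counts alone (0.13, adjusted p = 0.0709).

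Of 9 adaptors, 6 rose and 1 fell with EC359, 3 rose and 3 fell with trametinib, and 6 rose and 2 fell with the combination. Beside these, 30.8% of all genes rose and 30.3% fell with EC359, 13% and 15.2% with trametinib, and 35% and 34.7% in the combination. IRS2 and IRS1, which link IGF1R and INSR to PI3K, moved in opposite directions with EC359 and with the combination, and both were called lower with trametinib. IRS2 rose from 52.2 ± 1.30 CPM to 196 ± 8.69 CPM with EC359 (log2 fold change 1.91, adjusted p = 1.97e-42) and 239.7 ± 9.84 CPM with the combination (log2 fold change 2.20, adjusted p = 1.45e-45), and stood at 48.3 ± 1.66 CPM with trametinib (log2 fold change -0.11, adjusted p = 0.0325), a call lost without any of 4 single libraries. IRS1 fell from 21.1 ± 0.445 CPM to 18.0 ± 1.36 CPM with EC359 (log2 fold change -0.23, adjusted p = 0.00178), 13.0 ± 0.415 CPM with trametinib (log2 fold change -0.70, adjusted p = 7.97e-13) and 12.8 ± 0.186 CPM with the combination (log2 fold change -0.73, adjusted p = 3.53e-14). GAB2, a docking protein for PI3K and SHP2, rose from 35.2 ± 0.596 CPM to 102.3 ± 1.97 CPM with EC359 and 103.4 ± 5.52 CPM with the combination (log2 fold changes 1.54 and 1.56). SOS2, a guanine nucleotide exchange factor, rose by 0.75 log2 units with EC359, 0.26 with trametinib and 1.13 in the combination.

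Of 11 ligands and binding proteins of MET, AXL and IGF1R, 7 were tested. With EC359 none rose and 2 fell, with trametinib 1 rose and 1 fell, and with the combination 2 rose and 1 fell, none by 2-fold, where the shares of all genes were 30.8% and 30.3%, 13% and 15.2%, and 35% and 34.7%. HGF, the ligand of MET, and IGF1, a ligand of IGF1R, gave 0 counts in all 12 libraries, which allows up to 3 counts in each. IGF2, the other ligand of IGF1R, was at 5.01 ± 0.344 CPM in control. GAS6, the ligand of AXL, was at 95.5 ± 1.68 CPM in control and had log2 fold changes of 0.03 with EC359 and -0.03 with trametinib, which did not pass the test, and of 0.08 with the combination (adjusted p = 0.0254). The GAS6 call in the combination was lost without control replicate 2, control replicate 3 or combination replicate 3 (adjusted p = 0.0732, 0.0836 and 0.115), and by total counts alone its sign turned (-0.06). With EC359, GAS6 was called lower by total counts alone (-0.11, adjusted p = 0.00317).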

How the data were processed

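Polyadenylated RNA of OVCAR8 cells was made into stranded libraries and read from both ends for 100 bp. Per the file headers, the authors counted paired, reverse-stranded reads over exons with featureCounts 1.5.0-p1 at a minimum mapping quality of 2 and divided reads with several placements or overlapping genes, so the deposited values are estimated counts without normalization. HISAT2 and bcl2fastq are named in the submitters' processing notes without a version. Between 12.4% and 15.1% of genes in a library had values that were not whole, and all were rounded. The exons of EGFR and IGF1R overlap an antisense gene, and counting used the strand.

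Analyses used R 4.3.3. The filterByExpr function of edgeR 4.0.16 took out low genes (count of at least 10, total of at least 15), TMM factors lay between 0.947 and 1.06, and 1 robust quasi-likelihood model was fitted to all 4 groups. Across genes, libraries of a group correlated at r from 0.991 to 0.993, and libraries of different groups at 0.959 to 0.987. Same-group libraries differed by more than sampling noise (chi-square per degree of freedom 2.73 to 7.50 over 12 pairs). On simulated data for the combination against control, the test recovered 63 of 67 genes changed 1.5-fold and 67 of 67 changed 2-fold, with 13 false calls. For the interaction it recovered 57 of 67 and 64 of 67, with 9 false calls. Every simulated gene had the same spread beyond sampling noise, and only the combination group was changed. The lowest genes were not among those changed, so recovery for genes of larger spread or lower level was not measured. Standard errors were derived from the log2 fold change and its F statistic.

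The genes and lists were chosen with earlier results of these data known. Besides the 10 genes, the text names genes of the lists with at least 1 CPM in some group, an adjusted p under 0.05 and a 2-fold change compared to control (at most 6 per list), genes needed to describe a short list, and the 2 genes of most similar pattern. Alternatives were DESeq2 1.42.0, its size factors in edgeR, total counts alone, no filter, counts rounded down, only the groups compared, a filter of 10 counts in every library, the replicate number as a block, and each library left out. Promoters and start sites are from RefSeq on GRCh38.p14, and gene positions are those of the authors' hg38 annotation. Figures were drawn with matplotlib 3.10.9.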

Additional observations from a re-analysis of the deposited data

Results flagged for a closer look

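In 5 of the 9 tested genes the effect of trametinib differed with and without EC359 in a test of the interaction (edgeR, adjusted over all genes), 2 with a positive and 3 with a negative difference, where 14.4% and 15.9% of all genes had one. HBEGF had the clearest difference, 1.12 log2 units (adjusted p = 6.22e-23): all 3 trametinib libraries lay below the controls, and all 3 combination libraries lay above those with EC359 alone. For AREG the difference was 1.18 (adjusted p = 0.00997), from 8 to 23 counts per library in control and 10 to 17 with trametinib, and the call was lost without control replicate 2 (adjusted p = 0.0809) or trametinib replicate 1 (adjusted p = 0.0573). The receptors had negative differences of -0.22 for EGFR (adjusted p = 8e-05), -0.17 for AXL (adjusted p = 1.6e-05) and -0.14 for IGF1R (adjusted p = 0.0169). The IGF1R call was lost without control replicate 1 (adjusted p = 0.0634) or combination replicate 2 (adjusted p = 0.0995).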

How the results depend on the processing

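Of 417 values of the 9 tested members recomputed under other settings, 409 kept their direction and their side of the threshold, and of 378 with a library left out 364 did. For 22 other named genes compared to control these counts were 515 of 528 and 375 of 396. The cause of the changes below was not tested. Scaling by total counts alone moved the median log2 fold change of all genes to -0.15 with EC359, -0.14 with the combination and -0.16 for the combination against trametinib. Under it EGFR in the combination against trametinib turned from 0.12 to -0.045, and GAS6 in the combination turned to -0.061. Values with EC359 turned for KRT18 (-0.12), GAS6 (-0.11), EGF (-0.13) and NRG1 (-0.082), none called on the TMM scale. By total counts alone KRT18 (adjusted p = 3.55e-06) and GAS6 (adjusted p = 0.00317) were called lower with EC359, and EGF and NRG1 were not called. The interaction was called for 7 members instead of 5 under this scaling. IRS2 with trametinib lost its call by total counts alone (log2 fold change -0.08, adjusted p = 0.109) and under DESeq2 (0.0635). The IRS2 call was also lost without control replicate 2 (0.147), control replicate 3 (0.0648), trametinib replicate 1 (0.0524) or trametinib replicate 2 (0.177). With a library left out, the sign turned only in values that had not passed the test: AREG with trametinib ranged from -0.47 to 0.08, EGF with EC359 from -0.13 to 0.17, EPHB3 with trametinib from -0.16 to 0.0099, DDR2 with trametinib from -0.016 to 0.28, and ERBB2 in the combination against EC359 from -0.0038 to 0.037. NRG2 with EC359 lost its call under DESeq2 (adjusted p = 0.079), without a filter (0.0505) and without any of 3 single libraries. EPHA5 with trametinib lost it without control replicate 3 (adjusted p = 0.0758) or trametinib replicate 1 (0.0684). The comparison of only the groups concerned was not run for the interaction, which needs all 4 groups.

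Replicate numbers are shared by the groups. With the replicate block 8 members were called with EC359, 8 with trametinib, 8 with the combination and 5 in the interaction, as without it. Same-numbered libraries of different groups deviated with correlations from -0.17 to 0.227, of which 3 of 18 exceeded 0.1, so the numbers were not taken to pair the samples. Depth limits AREG, TGFA and EREG most, with 8 to 117, 45 to 127 and 0 to 3 counts per library.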
